A study of Zea mays with 32 samples.

Results

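The 61 genes described here had a higher mean level in the middle of the maize (Zea mays) root, in slices 6 to 9 of 16, than at the tip (slices 1 to 3) and farther back (slices 11 to 16). They were chosen by their counts in these same libraries. CPM here is a gene's count divided by all counts of the library, times 1000000. The mid mean is the mean CPM of 7 libraries of slices 6 to 9 (slice 8 of root A is not in it), the front mean that of the 6 libraries of slices 1 to 3 and the back mean that of the 12 libraries of slices 11 to 16. A gene of the Zm00001d series was kept where its mid mean was at least 20 CPM, at least 3 times the front mean and at least 3 times the back mean. Of 39510 identifiers in the table, 39336 are of that series, 8060 of these reached 20 CPM, 545 of the 8060 also met the criterion against the front and 1451 that against the back, and 61 met both, which is 0.757% of the 8060 and follows from the rule. The high mid level, the lower ends and every ratio between them follow from this choice and are given without a test. Slices 4, 5 and 10 and slice 8 of root A did not enter the choice.

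The root material came from wild-type plants of the inbred line B73 at 7 days after germination, grown on germination paper in a growth chamber. Slices from the tip backwards were cut by hand from 2 roots, A and B, that had been pinned side by side, so that by the labels each slice has 1 library of each root (n = 2 roots) and p-values measure the spread between these roots alone. All libraries share genotype, age and growth conditions, and they differ by slice and root. A growing root adds cells at its tip, so cells of a slice farther back are older. Behind the dividing cells of the tip, cells elongate and then differentiate into hair-bearing epidermis, endodermis with its Casparian strip, and vessels with thickened walls. A gene that is on only during one of these steps is high over a short stretch of the root and low on both sides of it. The labels assign no slice to a zone, and in whole slices a change in the number of cells of a type and a change in RNA per cell cannot be told apart.

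The files do not pair these identifiers with gene names, and 0 of the 61 matched the reference table of 49888 genes, so no function, sequence or position is given for a gene, marker genes of root cell types could not be looked up, and the lists of wall, transport and hormone genes drawn up for the comparison were not applied. Near-identical genes may share reads.

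Libraries held 1008082 to 5681180 counts, the 7 mid libraries 1669781 to 2943884. In slice 8 of root A 8303 genes had a count, and elsewhere 13804 to 22414 had one. Roots A and B were far more alike in slice 7 than in any other slice: over genes with at least 10 counts, chi-square divided by its degrees of freedom was 1.5 there, somewhat above the 1 that sampling noise gives, and 6.63 to 81.3 elsewhere. Whether the slice 7 libraries hold separate roots, as labelled, was not tested, so likeness in slice 7 is not read below as agreement between roots. Of the 61 genes, 1 differed at least 2 times between roots B and A in slice 7 (on CPM + 1), against 14 in slice 6 and 16 in slice 9. With slice 7 counted as 1 library, 57 genes met the rule, 56 of them among the 61.

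Most of the genes were of moderate level. The mid mean ran from 20.2 to 1140 CPM with a median of 50.8 CPM; 21 genes had at least 100 CPM. The median ratio of mid to front was 5.38 and that of mid to back 4.92. The mid mean was at least 10 times the front mean in 17 genes and at least 10 times the back mean in 13. Few genes were silent when the libraries of an end were summed. In the front libraries, which held 6731393 counts in all, 9 genes had 10 or fewer counts, and Zm00001d023345 had none, which allows up to 3 counts over the group. The sums hide a slope within the front. For roots A and B, the median level of the 61 genes at slice 1 was 0% and 0.498% of the mid mean. At slice 3 this median was 26.6% and 20.6%. The slice 1 libraries held 1052117 and 1139921 counts, so low levels can be missed there. Slices 2 and 3 held about as many, 1008082 to 1224733 counts. Fewer genes had a count in slice 1, 13804 and 17713 in roots A and B, against 18756 to 20127 in slices 2 and 3. The part of this in the slice 1 medians was not tested. In the back libraries, with 36345915 counts, the lowest summed count was 3, in Zm00001d053304. The front mean was below the back mean in 37 genes and above it in 24. Every mid library lay above every front and back library in 18 of the 61 genes. Over the 8060 genes this held for 43, or 0.533%, and since the choice used these libraries nothing is read from the difference.

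The 2 most abundant genes, picked for their level, differed in where along the middle they were highest. Slice 8 of root A is left out of this order. Zm00001d014887 was then highest in slice 9, with 1760 CPM in root A and 1380 CPM in root B, and stood at 1010 and 1130 CPM in slice 10; slice 8 held 3010 CPM in root A and 831 CPM in root B. Its levels were 1360 and 1330 CPM in slice 7 and 612 and 714 CPM in slice 6. Its front mean was 183 CPM and its back mean 253 CPM, so that it was never off. Zm00001d034015 was highest in slice 7, with 1400 CPM in root A and 1350 CPM in root B. It had already reached 636 and 794 CPM in slice 5 and was down to 188 and 222 CPM in slice 10. In slice 1 it stood at 0.95 and 15.8 CPM. For both genes, roots A and B had their maximum in the same slice when slice 8 of root A was not counted. For Zm00001d034015 that was slice 7, where likeness is not read as agreement between roots.

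Nearest the threshold from inside were Zm00001d006875, whose lower ratio was 3.024 with 26.7 CPM in the middle and 8.82 CPM at the front, Zm00001d043986 with 3.025 and Zm00001d053228 with 3.068. Just outside lay Zm00001d030795, whose mid mean of 45.1 CPM was 2.995 times its back mean, and Zm00001d023395 and Zm00001d032933, both at 2.972. With thresholds of 2 and 5 times, 196 and 18 genes met the rule. The scaling of the libraries mattered as well. With CPM scaled by TMM, a method that adjusts for the make-up of libraries, 52 genes met it, 46 of them among the 61, and with DESeq2's size factors 41 did, all among the 61.

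**Figure D1:**
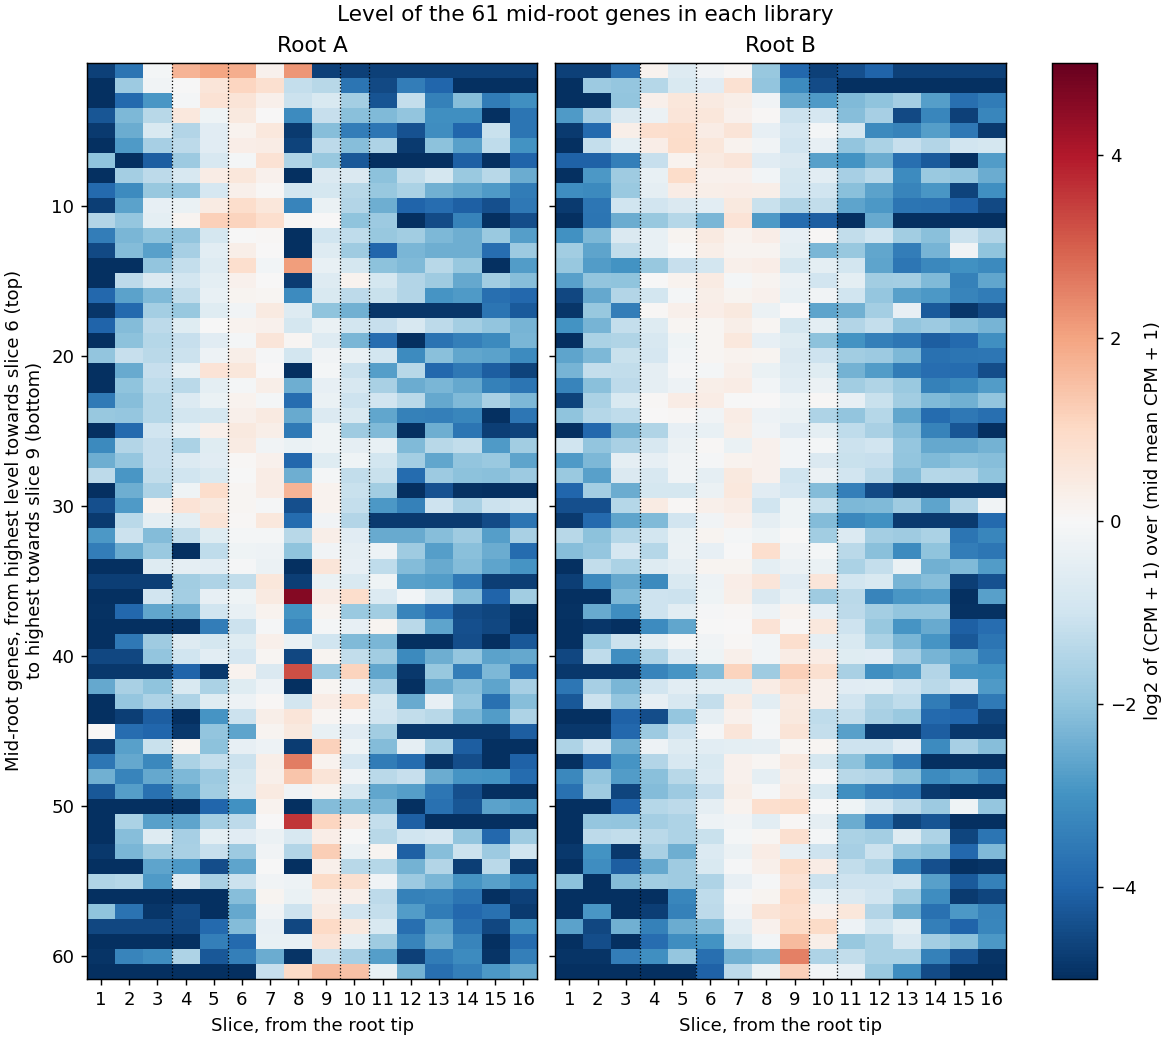
Each row is 1 of the 61 genes and each column 1 slice, in root A (left) and root B (right). Colour gives log2 of CPM + 1 over the mid mean + 1, dotted lines bound slices 4 to 5, 6 to 9 and 10, and rows run from genes highest towards slice 6 to genes highest towards slice 9. High levels sit in slices 5 to 10 in both roots, and the column of slice 8 of root A is irregular, with 13 genes at 0 counts and 9 genes at least 3 times their level in root B.

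The maxima were spread over the 4 slices. By the mean of a slice's libraries, with root B alone for slice 8, 12 genes were highest within the mid window in slice 6, 19 in slice 7, 9 in slice 8 and 21 in slice 9. This gave 31 genes highest in slice 6 or 7 and 30 highest in slice 8 or 9. When every slice but slice 8 was searched in each root, the maximum fell in slice 6, 7 or 9 for 48 genes in root A and 50 in root B, and in slice 5 or 10 for 10 and 9. The highest slice was the same in both roots for 27 genes and within 1 step for 51. Maxima in slice 7 enter both counts, so the counts are not read as agreement between roots. The stretch around the maximum with at least 50% of its level covered a median of 3 slices in root A and 4 in root B, slice 8 not counted, and from 1 to 6 and 1 to 7 slices over the genes.

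The profiles of these groups were offset against each other in both roots. The groups were formed by the highest of slices 6 to 9, so the offset within those slices follows from the split. Among the 31 genes of slices 6 and 7 the median level, as a percentage of each gene's mid mean, for roots A and B was 52.2% and 58% at slice 4 and 77.4% and 91.2% at slice 5. Behind the maximum it was 75.1% and 65.9% at slice 9, then 41.1% and 48.8% at slice 10. Among the 30 genes of slices 8 and 9 it was 26.4% and 30.5% at slice 4 and 31.4% and 41.4% at slice 5. These genes stood at 117% and 134% at slice 9, then 74.2% and 92.7% at slice 10. By slice 12 the medians were down to 8.77% and 17.7% in the first group and 16% and 34% in the second. Slice 12 of root A had a count for 16598 genes out of 5681180 counts, against 20770 genes out of 3359460 counts in root B. The part of this in the lower root A medians was not tested.

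**Figure D2:**
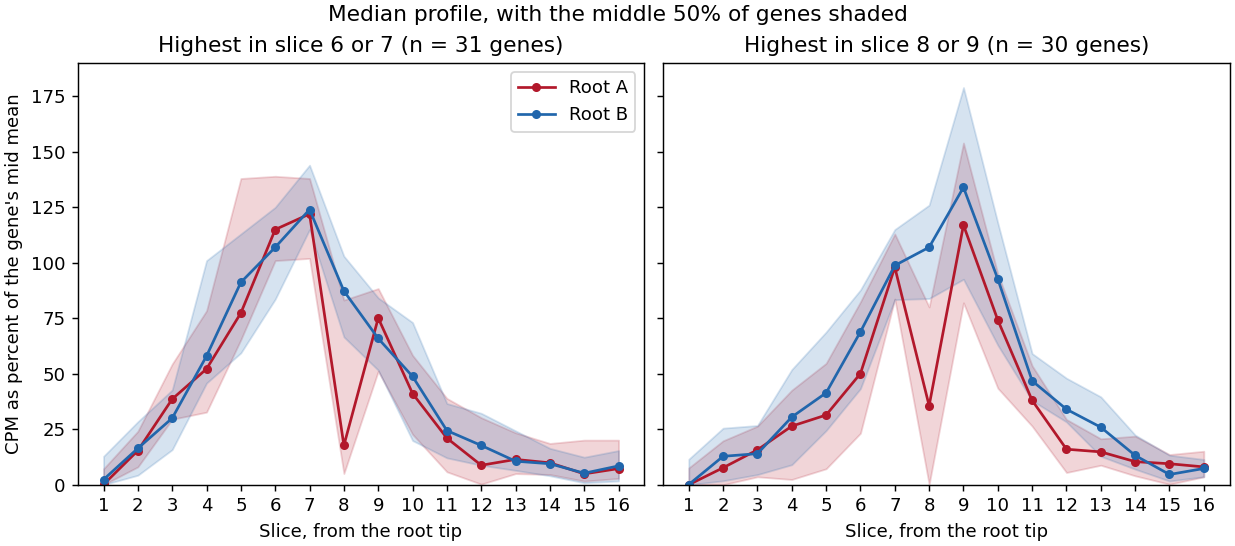
Median level in each slice as a percentage of the gene's mid mean, for the 31 genes highest in slice 6 or 7 (left) and the 30 highest in slice 8 or 9 (right); shading covers the middle 50% of genes. For roots A and B the medians are highest in slice 7 on the left (122% and 124%) and in slice 9 on the right (117% and 134%). The groups were formed by the levels in slices 6 to 9, and likeness in slice 7 is not read as agreement between roots. The dip in slice 8 is that of the root A library alone.

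The slices left out of the rule show how sharply the stretch was bounded. Slice 5 held at least 50% of the mid mean in 41 of the 61 genes and slice 10 in 39. Both did in 20 genes, slice 5 alone in 21 and slice 10 alone in 19. The exception was Zm00001d052892, named for this reason, with neither. Its mid mean of 28.7 CPM rested on 1 library, since slice 9 of root B held 171 CPM, 84.9% of the sum over the 7 mid libraries, and the other 6 held 1.2 to 13 CPM. The next highest share of a single library was 52.1%, in Zm00001d053304, and the median over the genes was 21.6%. Slice 5 was above the mid mean in 14 genes and slice 10 in 10.

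Between slice 5 and slice 4, on the tip side of the stretch, the 61 genes lay mostly higher in slice 5, but no gene passed the test. The median log2 change of the 61 genes was 0.68, against 0.03 over all 21193 genes tested, and 56 of the 61 (91.8%) had a change above 0, against 52% of all genes. In 43 of the 61 (70.5%) slice 5 was higher in both roots, against 24.4% of the genes tested. The rule asks for low slices 1 to 3 and high slices 6 to 9, so slices 4 and 5 lie on a slope it fixed. Of the 484 tested genes that met the criterion against the front alone, 469 had every test value defined, with a median of 0.45. The rest of the 484 are left out of this median, and its difference from 0.68 was not tested. edgeR's quasi-likelihood test called 0 of the 61 genes and 0 of all genes in either direction (0%), with a lowest adjusted p of 1. At an unadjusted p under 0.05, 5 of the 61 genes (8.2%) were higher in slice 5, against 0.698% of all genes, and 0 were lower, against 0.854%. DESeq2 called 0 of the 61 and 1 gene in all. The 5 genes at an unadjusted p under 0.05 were Zm00001d020862, Zm00001d024307, Zm00001d041962, Zm00001d049975 and Zm00001d053228. Zm00001d020862 had 32.4 and 67 CPM in slice 5 of roots A and B, against 3.81 and 10.8 CPM in slice 4 (log2 change 2.79 ± 0.94 SE, edgeR, unadjusted p = 0.00674, adjusted p = 1). Both libraries of slice 5 lay above both of slice 4. Zm00001d049975 stood at 190 and 230 CPM in slice 5, against 104 and 131 CPM in slice 4 (0.91 ± 0.37 SE, edgeR, unadjusted p = 0.0194, adjusted p = 1).

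Slice 10 against slices 4 and 5 sets the slice behind the stretch against those in front of it. Of the 61 genes, 17 were higher in slice 10 (27.9%) and 7 lower (11.5%), at an adjusted p under 0.05 in edgeR's quasi-likelihood test; of all genes tested, 16.7% were higher and 16.8% lower. The median log2 change was 0.31, against −0.02 over all genes, and 37 of the 61 (60.7%) had a change above 0, against 47.3%. All 17 and all 7 changed in that direction in each root, and in 15 of the 17 and all 7 no library of slice 10 overlapped those of slices 4 and 5. The calls rest on these same libraries, so this adds no separate support. The matching shares over all genes called were not counted.

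The direction went with the slice of the maximum. That slice was found without slices 4, 5 and 10, but slices 5 and 10 border the mid window and neighbours along a root are alike. The split by direction is therefore a description and not independent support. Of the 30 genes highest in slice 8 or 9, 15 were called higher in slice 10 and 0 lower, with a median log2 change of 1.39. Of the 31 highest in slice 6 or 7, 2 were called higher and 7 lower, with a median of −0.63. The exceptions were Zm00001d052224 and Zm00001d023345. Zm00001d052224 had 621 and 554 CPM in slice 7 of roots A and B and 491 and 607 CPM in slice 9. Slice 7 was thus the higher one in root A and slice 9 in root B. For Zm00001d023345 the roots differed within the window. Roots A and B had 31.5 and 5.39 CPM in slice 6, then 16 and 60.1 CPM at slice 7, and 7.02 and 64.5 CPM at slice 9. Across the 61 genes the log2 ratio of slice 9 to slice 6 and the log2 change from slices 4 and 5 to slice 10 had a Pearson correlation of 0.839. Both measures come from neighbouring slices of the same roots, and neighbours along a root are alike, so the value is a description.

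**Figure D3:**
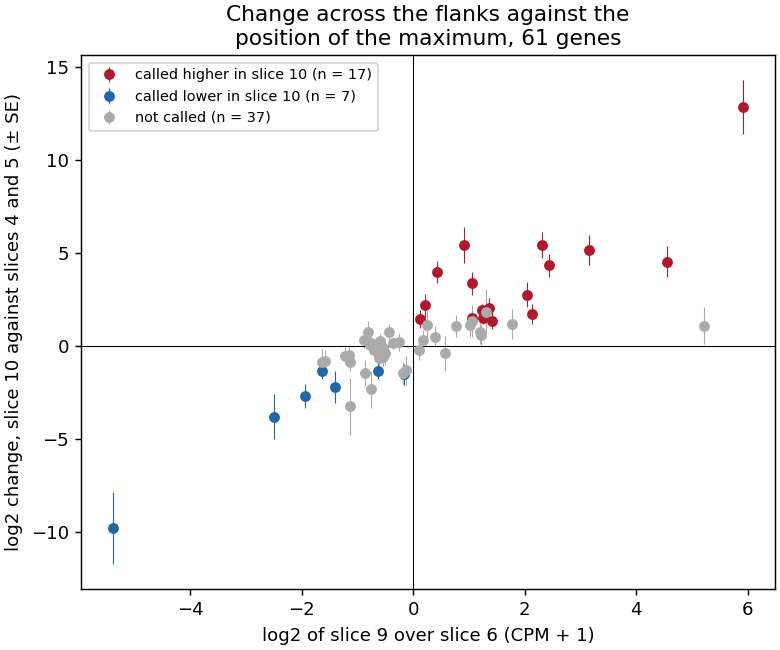
Each point is 1 of the 61 genes, with the log2 ratio of slice 9 to slice 6 (on CPM + 1) along the x axis and edgeR's log2 change of slice 10 against slices 4 and 5 (± SE) along the y axis. The 17 genes called higher in slice 10 lie to the right of 0 and the 7 called lower to the left; the points at the far ends of the y axis are genes with 1 count in slices 4 and 5 or 0 counts in slice 10.

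The 4 genes with the highest and lowest changes show the range of shapes. Zm00001d052835 was near 0 on the tip side and high behind it. For roots A and B, slice 10 held 1400 and 466 CPM, against 0 and 0 CPM in slice 4 and 0 and 0.527 CPM in slice 5. Slice 10 held 3730 counts against 1 count in slices 4 and 5, a ratio of 4560 per library total with a counting interval of 817 to 180000 (edgeR, adjusted p = 4.5e-06). It stood at 12.5 and 29.9 CPM in slice 6 and 230 and 203 CPM in slice 7. The maximum of 1510 and 1170 CPM came in slice 9, and slice 12 had 98.4 and 139 CPM. Zm00001d005986 had 212 and 135 CPM in slice 10 of roots A and B, against 0 and 3.81 CPM in slice 4 and 1.14 and 17.4 CPM in slice 5 (log2 change 5.43 ± 0.71 SE, edgeR, adjusted p = 1.18e-06). Both libraries of slice 10 lay far above the 4 of slices 4 and 5, and the maximum was in slice 10 in root A and in slice 9 in root B (355 CPM).

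The genes with the lowest changes were on earlier and differed between the roots. Zm00001d053304 had 0 counts in slice 10 of both roots, against 80.8 and 27.3 CPM in slice 4 and 97.6 and 15.3 CPM in slice 5. With 3 counts per library as the floor, slice 10 was at least 40-fold lower in root A and at least 27.9-fold lower in root B (edgeR over both roots, adjusted p = 0.000501). It was gone by slice 9, with 0 and 0.679 CPM. In slice 8 of root A it stood at 115 CPM, against 5.79 CPM in that of root B. Zm00001d017292 had 17.3 and 9.18 CPM in slice 10, against 222 and 83.9 CPM in slice 4 and 346 and 133 CPM in slice 5 (log2 change −3.82 ± 1.21 SE, edgeR, adjusted p = 0.0237). Its call was lost in 7 of 13 alternatives, among them DESeq2 (adjusted p = 0.0871) and edgeR without slice 10 of root A (adjusted p = 0.0815) or of root B (adjusted p = 0.224), slice 4 of root A (0.0538) or slice 5 of root A (0.0541). The log2 change stayed between −4.15 and −3.16 in these 7, and with root as a replicate block it was −3.56 ± 0.63 SE (edgeR, adjusted p = 6.36e-05). In root B it was at 152 CPM in slice 6 and 387 CPM in slice 7, where root A had 484 and 398 CPM.

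**Figure D4:**
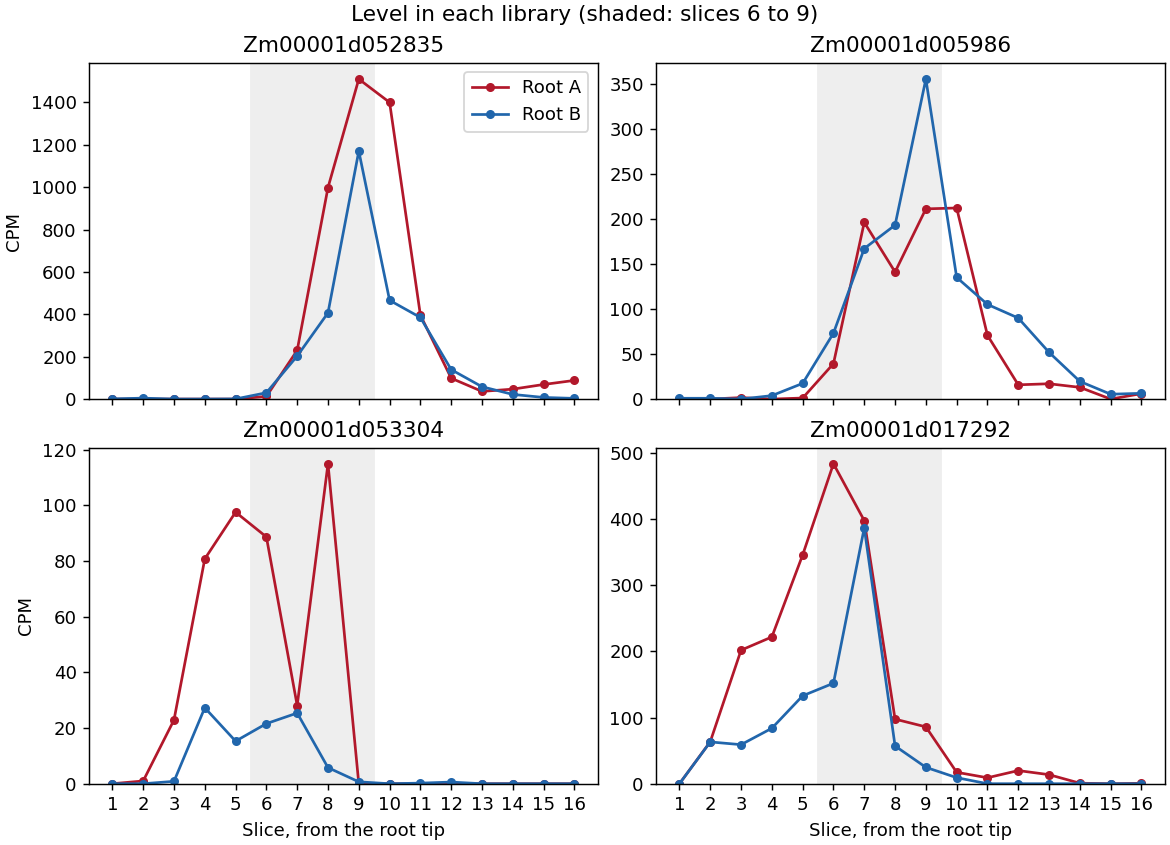
CPM in each of the 16 slices of roots A and B for the 2 genes with the highest change in slice 10 against slices 4 and 5 (top) and the 2 with the lowest (bottom); slices 6 to 9 are shaded. The top genes peak in slices 9 and 10. The bottom ones are high in slices 4 and 5, and Zm00001d017292 already had 202 CPM in slice 3 of root A. Both bottom genes were higher in root A than in root B in slices 4 to 6, and are close between the roots in slice 7.

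Other genes called in this comparison showed smaller changes of the same kinds. Zm00001d014887 had 1010 and 1130 CPM in slice 10, against 242 to 441 CPM in the libraries of slices 4 and 5 (log2 change 1.94 ± 0.29 SE, edgeR, adjusted p = 8.79e-06). Zm00001d021736 had 98.7 and 227 CPM in slice 10, against 5.11 to 17.9 CPM (4.33 ± 0.63 SE, edgeR, adjusted p = 8.78e-06). Zm00001d044640 had 39.9 and 78.2 CPM, against 0.762 to 7.91 CPM, and 1 count in the front libraries. Among those lower in slice 10, Zm00001d034015 had 188 and 222 CPM, against 416 to 794 CPM in slices 4 and 5 (−1.35 ± 0.41 SE, edgeR, adjusted p = 0.0123). Zm00001d005016 had 12.8 and 5.21 CPM, against 40.4 to 72.7 CPM (−2.71 ± 0.65 SE, edgeR, adjusted p = 0.00184). In each of these the libraries of slice 10 lay apart from those of slices 4 and 5. The number called lower was 4 in place of 7 with all 32 libraries, with no filter on low counts or with edgeR's older dispersion step, and was 2 without slice 10 of root A or of root B.

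The genes that met only one of the criteria went one way across the same slices. Of the 484 genes that met the criterion against the front alone, 411 were higher in slice 10 than in slices 4 and 5 and 1 was lower, with a median log2 change of 2.73. Of the 1390 that met the criterion against the back alone, 7 were higher and 1022 lower, with a median of −2.01. The 61 genes lay between these groups, with a median of 0.31; this difference was not tested, and the groups were formed from the neighbouring slices.

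The roots differed for some of the genes. Applied to a single root, the rule was met by 57 genes in root B, 42 of them among the 61, and by 81 genes in root A, 47 of them among the 61. Of the 61, 31 met it in each root and 3 in neither root alone. Over slices 4, 5 and 10, on CPM + 1, 9 genes were at least 2 times higher in root B than in root A and 8 at least 2 times lower, with log2 ratios of root B to root A from −2.38 to 2.42 and a median of 0.2. Zm00001d031909 had 14.6, 15.8 and 40.2 CPM in slices 4, 5 and 10 of root B, against 0, 1.7 and 9.04 CPM in root A. Zm00001d037703 had 8.26, 11.6 and 0.993 CPM in root B, against 36.6, 77.2 and 7.53 CPM in root A. The libraries of slice 7 did not follow their neighbours here. Zm00001d031909 had 45.7 CPM in root B and 46.3 CPM in root A in slice 7, where slices 6 and 9 of root A held 4.17 and 8.42 CPM. Zm00001d037703 had 54.2 CPM in root B and 60.6 CPM in root A, where slices 6 and 8 of root B held 5.99 and 3.86 CPM. These genes were picked for the extremes of the ratio, each side is 1 root, and no test was run.

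Slice 8 of root A was set beside slice 8 of root B, which the rule used. In root A 48 of the 61 genes (78.7%) had a count there, against 67.1% of the 8060 genes with at least 20 CPM in the middle. The median ratio of root A to root B was 0.259. At least 3 times higher in root A were 9 genes, and 32 were at least 3 times lower. The median and these counts were not computed over the 8060 genes, so nothing particular to the 61 is read from them. Zm00001d001771 had 801 CPM in root A against 19.3 CPM in root B, where slices 7 and 9 of root A held 44.6 and 41.8 CPM. Zm00001d014563 had 523 CPM against 29.3 CPM, with 43.7 and 93 CPM in slices 7 and 9 of root A. With this library added to the mid mean, 142 genes met the rule, 44 of them among the 61. The low number of genes in this library moves with these values, and its part in them was not tested.

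**Figure D5:**
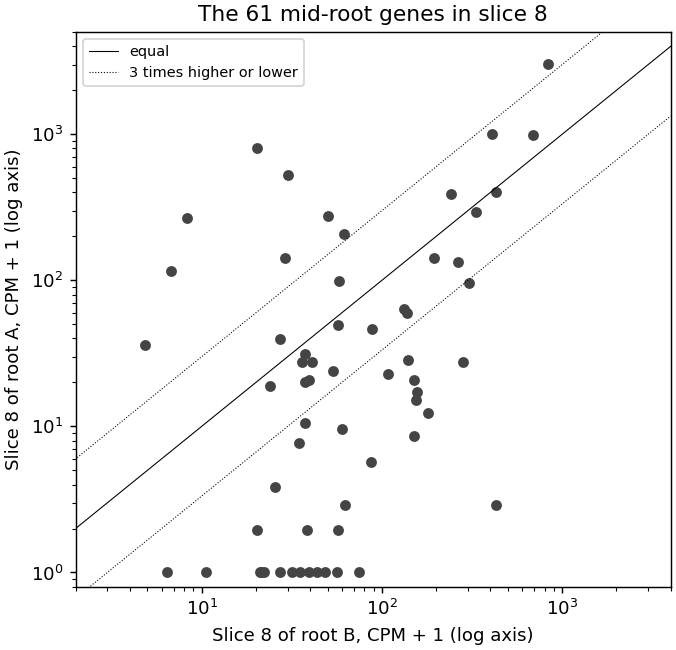
CPM + 1 of the 61 genes in slice 8 of root A (y axis) against slice 8 of root B (x axis), both on log axes; the solid line marks equal levels and the dotted lines 3 times higher or lower. Points along the bottom are the 13 genes with no count in root A, and 9 genes lie above the upper dotted line.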

How the data were processed

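RNA-seq was made from 32 libraries of 2 roots with an Ovation kit that amplifies cDNA, per the labels' protocols. The deposited table holds whole-number counts per gene identifier; per the submitters' processing notes the authors used Trimmomatic, kallisto 0.43 and DESeq2, with no roles given. For build, annotation and strand, the sources used here give nothing. Titles gave the slice and a letter, a or b, for the root, and 0 columns lacked a sample.

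CPM was computed from column totals. Counts were tested in edgeR 4.0.16 (R 4.3.3): TMM, filterByExpr by slice (minimum count 10, minimum total 15; all 61 genes passed and 21193 were tested), robust quasi-likelihood fit of 16 slices over 31 libraries, without slice 8 of root A as in the rule; Benjamini-Hochberg adjustment, calls at 0.05; SE is the log2 change over the square root of F. DESeq2 1.42.0 was an alternative. The steps were tested on simulated data. Those libraries were drawn independently, with no likeness between slices of a root or between the slice 7 libraries. They cannot show how the tests fare with such likeness, and nothing is read from them here. The letters pair libraries by root, per the labels; deviations of slices 4, 5 and 10 from their means correlated at 0.312, 0.154 and 0.191 between slices of a root (log2 CPM, prior count 2). Intervals are 95% exact binomial and, with floors (3 counts), cover counting error only, since the kit amplifies and no molecular identifiers are stated. The genes to be named by rule were the 2 highest and 2 lowest changes called in slice 10 against slices 4 and 5; others were picked after their values were seen. The 61 genes, lists and tests were chosen with earlier results of these data known.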

Additional observations from a re-analysis of the deposited data

Results flagged for a closer look

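In 6 genes the level in slice 10 lay on opposite sides of both slices 4 and 5 in the 2 roots. In 5 of them slice 10 was the highest of the 3 in root A and the lowest in root B, and in Zm00001d050277 it was the lowest in root A (9.04 CPM, against 10.7 and 15.3 CPM in slices 4 and 5) and the highest in root B (29.5 CPM, against 6.99 and 13.7 CPM). In Zm00001d018961 slice 10 stood at 75.3 CPM in root A, against 67 and 68.7 CPM in slices 4 and 5, and at 43.7 CPM in root B, against 130 and 132 CPM. The difference between the roots was not tested.

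Slice 8 of root A, which entered neither the rule nor the test as first reported, held over 3 counts in 42 of the 61 genes. The matching share over all genes was not counted, so nothing particular to the 61 is read from this number.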

How the results depend on the processing

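The number of genes by the rule was 61, and 57 to 72 without each of 25 libraries in turn; 42 of the 61 met it each time. It was 196 and 18 with thresholds of 2 and 5 times, 31 at a level of 50 CPM, 142 with slice 8 of root A and 55 without slices 1 and 12 of root A, which was added after the data were seen. In slice 10 against slices 4 and 5 the count called higher stayed between 14 and 18 in the 13 alternatives run, and 11 of the 17 genes were called in each. The count called lower was 4 with all 32 libraries, without a filter or with the older dispersion step, 5 in DESeq2 and with slice 7 as 1 library, and 2 to 7 without 1 library; Zm00001d053304 was the one called in each. With DESeq2's size factors the median of all genes shifted to −0.12, with 17 and 7 calls. With root as a replicate block, 18 and 10 genes were called, the 17 and 7 among them. Zm00001d017292 was not called in 7 of the 13, with adjusted p from 0.0527 to 0.224; the cause was not tested. In slice 5 against slice 4, 0 of the 61 were called in any alternative, which shows no stability.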
